A study of Mus musculus with 48 samples.

Results

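Solute carriers are the largest group of membrane transport proteins, and their genes carry symbols that begin with Slc and a family number. The members described here are the 193 mouse genes whose symbol starts with Slc followed by a digit, pseudogenes left out, that had a value in all 12 membrane libraries. They were 193 of 268 such genes with a value in any library, and 193 of 12408 genes of any kind with a value in all 12 membrane libraries. Every member has its value in the membrane libraries, while 153 also had one in all 12 cytosol libraries, 171 in all 12 nucleus libraries, 179 in all 12 total libraries and 150 in all 48. Sorted by family number, the members were 30 of amino acid transport, 30 of inorganic ion and pH transport, 29 mitochondrial carriers (Slc25), 21 nucleotide sugar and related transporters (Slc35), 19 of metal ion transport, 18 of monocarboxylate and organic ion transport, 15 of sugar transport, 14 of lipid, choline and peptide transport, 11 of nucleoside and vitamin transport and 6 of other families. Slc4a1ap, Slc7a6os and Slc9a3r1 match by symbol but encode no transporter.

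All libraries came from E14TG2a cells, a mouse embryonic stem cell line grown with LIF and 2 inhibitors (2i), and every culture received 1 µM flavopiridol, which blocks CDK9 and with it the elongation of new transcripts. Cells were taken after 30, 60, 120 or 240 min of the drug, and polyadenylated RNA was sequenced from the cytosol (released with digitonin), the membrane fraction (then released with NP-40), the nucleus (the pellet on a sucrose cushion) and a total extract set aside beforehand, with 3 independently passaged replicates of each time. Each harvest was split, so that the 48 libraries are 4 fractions of 12 harvests, and libraries of 1 replicate number and time are taken to share a culture. Untreated 0 min cells enter only as a divisor: each deposited value is a ratio of a gene's scaled read count to its 0 min level in the same fraction. A ratio of 1 therefore means no change since the drug was added, and ratios carry no expression level. A membrane ratio divided by a cytosol ratio is the change since 0 min in how a gene's RNA was split between the 2 fractions, not the split itself.

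Most solute carriers cross the membrane many times, and their mRNAs are translated by ribosomes that the signal recognition particle brings to the endoplasmic reticulum, so the mRNA is held at that membrane while it is read. The Slc25 family is different: most of these carriers sit in the inner mitochondrial membrane, are encoded in the nucleus and are in the main imported after synthesis. The group was formed by family number, so it can hold members that sit elsewhere. With transcription blocked, RNA can leave the nucleus, move between cytosol and membrane and be degraded, and ratios to 0 min do not tell these apart.

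Libraries listed between 15067 and 19501 genes, and genes at 0 are not listed. Of 8 stem cell markers, 6 were listed in all 48 libraries, including Pou5f1, Sox2 and Nanog, while Zfp42 was listed in 47 and Esrrb in 37. None of 5 fibroblast markers was listed in all 48, with Postn in 0 and Col1a1 in 44, and of 4 primitive endoderm markers Dab2 was listed in 48 and Gata4 in 0. The nuclear library of replicate 1 at 30 min stood apart, with a median ratio of 0.555 against 0.934 and 0.805 in the other 2.

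The first comparison set membrane against cytosol at each time. Outside the Slc25 family, the median ratio to 0 min of solute carrier mRNAs was higher in membrane than in cytosol as soon as 30 min after the drug. Over the 124 members outside Slc25 with values in both fractions, the median log2 ratio at 30 min was 0.05 ± 0.04 (SD, n = 3) in membrane and −0.29 ± 0.10 in cytosol, so membrane levels lay near their 0 min value and cytosol levels below it. Over all 11086 genes tested, the medians were −0.12 ± 0.01 and −0.09 ± 0.06. The 29 Slc25 genes lay with the genes at large, at −0.06 ± 0.03 in membrane and −0.05 ± 0.11 in cytosol.

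Within each replicate, the median log2 membrane over cytosol ratio of members outside Slc25 at 30 min was 0.44, 0.28 and 0.27, while all genes gave 0.02, −0.05 and −0.11. The gap between the 2 medians does not depend on how libraries are scaled, because a scale factor moves both alike. This gap was 0.38 ± 0.05 (SD, n = 3) at 30 min, 0.63 ± 0.16 at 60 min, 0.49 ± 0.04 at 120 min and 0.20 ± 0.17 at 240 min. It was above 0 in all 3 replicates at every time, with a lowest value of 0.04 in replicate 3 at 240 min. For Slc25 the same gap was 0.03 ± 0.03, 0.06 ± 0.04, −0.005 ± 0.065 and −0.09 ± 0.07.

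**Figure D1:**
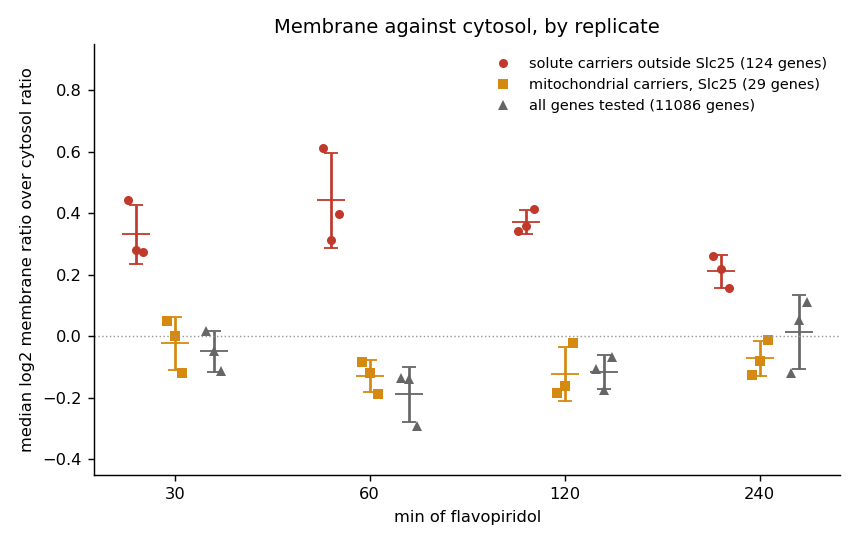
Median log2 of membrane ratio over cytosol ratio at each time for 124 solute carrier genes outside Slc25, 29 Slc25 genes and all 11086 genes tested; points are the 3 replicates, bars the mean ± SD. Points outside Slc25 sit above those of all genes at each time, with the smallest distance at 240 min, while Slc25 points lie near them.

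Tested gene by gene with limma over all 11086 genes, 23 of the 153 members were called higher in membrane at 30 min and 0 lower, against 3.83% of all genes called higher and 2.61% lower. At an unadjusted p under 0.05 the counts were 54 higher and 4 lower, with no share of all genes at that threshold to set beside them. Limma without its trend called 1 lower. All 23 were outside Slc25, in which 0 of 29 genes were called in either direction and 3 were higher and 2 lower unadjusted. At 60 min 52 members were called higher and 10 lower (all genes 8.36% and 23.6%), at 120 min 46 and 19 (13.2% and 24.4%), and at 240 min 44 and 28 (17.5% and 15.8%). Of these, Slc25 genes made up 0 of those higher and 3 of those lower at 60 min, 1 and 6 at 120 min, and 4 and 7 at 240 min. Calls that held with each replicate left out in turn were 0 of the 23 higher at 30 min. At 60 min they were 19 of 52 higher and 1 of 10 lower, at 120 min 23 of 46 and 5 of 19, and at 240 min 16 of 44 and 9 of 28.

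The counts at 30 min fell, in members as in all genes, with any replicate left out. Without replicate 1 limma called 0 of 157 members higher, and 2 of 11424 genes. At an unadjusted p under 0.05 it then gave 34 members higher and 5 lower, again with no share of all genes beside them. Without replicate 2 it called 5 of 158 members (3.16%, all genes 0.569%), and without replicate 3 it called 7 of 157 (4.46%, all genes 0.8%). The values of a gene at all 4 times share 1 divisor per fraction, its 0 min level, and an error of that level is not part of the replicate spread behind these p-values. Scaling to 10 mitochondrially encoded mRNAs moved the median membrane over cytosol difference of all genes from −0.05 to −0.93 at 30 min, from −0.19 to −0.55 at 60 min, from −0.11 to −1.66 at 120 min and from 0.01 to −1.58 at 240 min. On that scale 0 members were called higher and 78 lower at 30 min, 5 and 25 at 60 min, 0 and 134 at 120 min and 0 and 133 at 240 min, so the directions below are relative to the authors' scaling. Lower calls made up 51%, 16.3%, 87.6% and 86.9% of members at the 4 times, against 76.2%, 40.2%, 91.2% and 89.8% of all genes. The authors place mitochondria in the membrane fraction and report mitochondrial contamination of the nuclear fraction. Whether mitochondrially encoded mRNAs are a steady reference in each fraction under the drug was not tested. When every library was shifted so that its median gene sat at 0, which measures members against the genes at large, the counts were 30 higher and 0 lower, 69 and 4, 56 and 11, and 46 and 27. Higher calls then made up 19.6%, 45.1%, 36.6% and 30.1% of members, against 5.48%, 14.4%, 20.6% and 19.7% of all genes, and lower calls 4.25%, 14.8%, 18.4% and 17.5% of all genes.

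By group, the median log2 difference at 30 min ran from 0.19 for inorganic ion and pH transporters to 0.56 for nucleoside and vitamin transporters in all groups but 2. Those 2 were Slc25 (0.0062) and the monocarboxylate and organic ion transporters (−0.0017), of which 7 of 14 lay above 0 and 1 was called higher. At 60 min 9 of 17 Slc35 genes, 9 of 15 metal ion transporters, 7 of 10 lipid, choline and peptide transporters and 10 of 24 amino acid transporters were called higher in membrane. The group medians were then 0.63 for Slc35, 0.48 for metal ions, 0.63 for lipids, choline and peptides and 0.38 for amino acids, against −0.19 for all genes and −0.13 for Slc25. No gene of the Slc35, metal ion or lipid, choline and peptide groups was called lower at 60 min, against 3 amino acid transporters. Sugar transporters gave 4 higher and 1 lower of 12, inorganic ion and pH transporters 7 and 2 of 23, monocarboxylate and organic ion transporters 2 and 1 of 14, and nucleoside and vitamin transporters 3 and 0 of 7. By 240 min the metal ion median had come to −0.01, with 5 called higher and 2 lower, while Slc35 stayed at 0.47 with 8 higher and 1 lower. Of all genes, 8.36% were called higher and 23.6% lower at 60 min, and 17.5% and 15.8% at 240 min. On the scale of mitochondrially encoded mRNAs each group median shifts down by the same amount as the median of all genes.

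**Figure D2:**
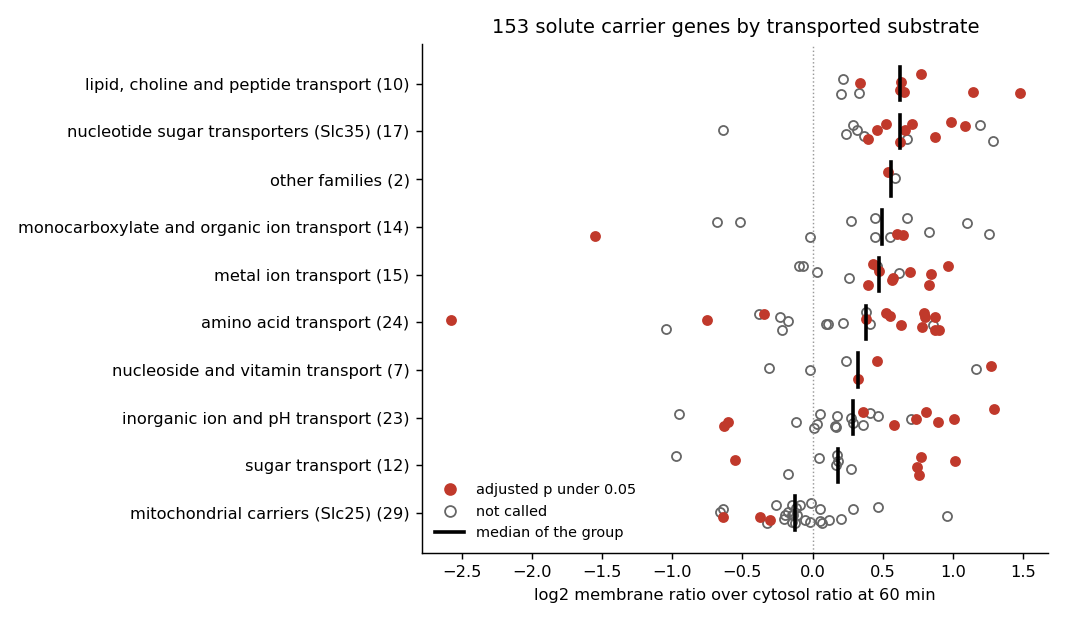
Log2 of membrane ratio over cytosol ratio at 60 min for each of 153 solute carrier genes, in rows by group (number of genes in brackets); filled points passed an adjusted p of 0.05, bars are group medians. The Slc25 row is centred just below 0 at −0.13 and all other rows have medians above 0.

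Membrane and cytosol values did not overlap for many members. At 30 min all 3 membrane values lay above all 3 cytosol values in 57 of 124 members outside Slc25 (46%), against 13.8% of all genes tested, and below them in 1 (all genes 20.4%). For Slc25 this held for 2 of 29 genes above (6.9%) and 3 below (10.3%). Membrane ratios also stayed above 1 in all 3 libraries at 30 min for 53 of the 164 members outside Slc25 (32.3%, all genes 15.3%), and at 60 min for 35 (21.3%, all genes 10.5%). At 60 min 0 of 29 Slc25 genes did so. In cytosol at 30 min 9 of 124 members outside Slc25 (7.26%) were above 1 in all 3 libraries, against 14.6% of all genes.

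Of the 153 members, 77 were called higher in membrane at 1 or more times (50.3%, all genes 24%) and 39 lower at 1 or more times (25.5%, all genes 33.6%). Called in both directions at different times were 10 (6.54%, all genes 1.55%), and 47 were called at no time (30.7%, all genes 44%). Called higher at all 4 times were 11 (7.19%, all genes 1.88%), named here after their values were seen: Slc12a2, Slc15a1, Slc20a2, Slc35a3, Slc35e1, Slc39a1, Slc39a14, Slc41a1, Slc44a1, Slc6a16 and Slc7a5. With the harvest as a block, Slc41a1 lost its call at 240 min (adjusted p = 0.054). Without replicate 1, 0 members were called higher at 30 min, so no gene of this list then kept its call at all 4 times. Lower at all 4 times were 0 members (all genes 1.66%), and 4 were called lower at 3 (2.61%, all genes 8.71%): Slc25a12, Slc3a2, Slc5a3 and Slc9a3r1.

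Among ion transporters, Slc12a2, the sodium, potassium and chloride cotransporter NKCC1, had membrane ratios of 1.07, 1.10 and 1.17 at 30 min and 0.874, 0.883 and 0.869 at 240 min. Its cytosol ratios were 0.557, 0.599 and 0.702 at 30 min and 0.491, 0.500 and 0.426 at 240 min, so the fractions never overlapped. The log2 difference at 60 min was 0.81 ± 0.09 (SE), with an adjusted p of 1.6e-05. Slc20a2, a phosphate importer, differed by 0.74 ± 0.14 at 60 min and Slc41a1, which transports magnesium, by 0.48 ± 0.09.

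Zinc importers were among them. Slc39a1 (ZIP1) had membrane ratios of 1.11, 0.955 and 1.09 at 60 min against 0.575, 0.506 and 0.685 in cytosol, a log2 difference of 0.84 ± 0.12 (adjusted p = 7.9e-05). Slc39a14, which also carries iron and manganese, had 1.07, 1.10 and 1.02 against 0.605, 0.805 and 0.744, a difference of 0.58 ± 0.14 (adjusted p = 0.0042). In both genes the lowest membrane value was above the highest cytosol value, and the call for Slc39a14 was lost without replicate 1 (0.45, adjusted p = 0.085). Slc11a2 (DMT1), the importer of ferrous iron, was called at 60 min alone, with 1.15, 0.984 and 1.14 in membrane against 0.783, 0.681 and 0.742 in cytosol, and held in 1 of the 3 fits with a replicate left out.

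Slc44a1, a choline transporter, stayed at or above its 0 min level in membrane at every time, from 1.14, 1.11 and 1.25 at 30 min to 1.04, 1.14 and 1.03 at 240 min. In cytosol it lay between 0.667 and 0.909 over all 12 libraries, below every membrane value. At 60 min the log2 difference was 0.63 ± 0.09 (adjusted p = 8.7e-05). Slc15a1, the peptide transporter PEPT1, differed by 0.65 ± 0.12 at the same time, with membrane ratios of 1.47, 1.63 and 1.41 at 240 min against 0.887, 0.879 and 0.997 in cytosol.

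Of the Golgi nucleotide sugar family, Slc35a3, which carries UDP-N-acetylglucosamine, was at 0.933, 1.00 and 1.05 in membrane and 0.636, 0.617 and 0.579 in cytosol at 60 min. Slc35e1, whose substrate is not settled, was at 1.14, 0.981 and 1.09 against 0.602, 0.556 and 0.591. Their log2 differences were 0.71 ± 0.11 and 0.88 ± 0.09. Slc35a1, the CMP-sialic acid transporter, passed the test at 120 min (0.42 ± 0.14, adjusted p = 0.024) and 240 min (0.39 ± 0.14, adjusted p = 0.037) and missed it before, and both calls were lost whichever replicate was left out.

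**Figure D3:**
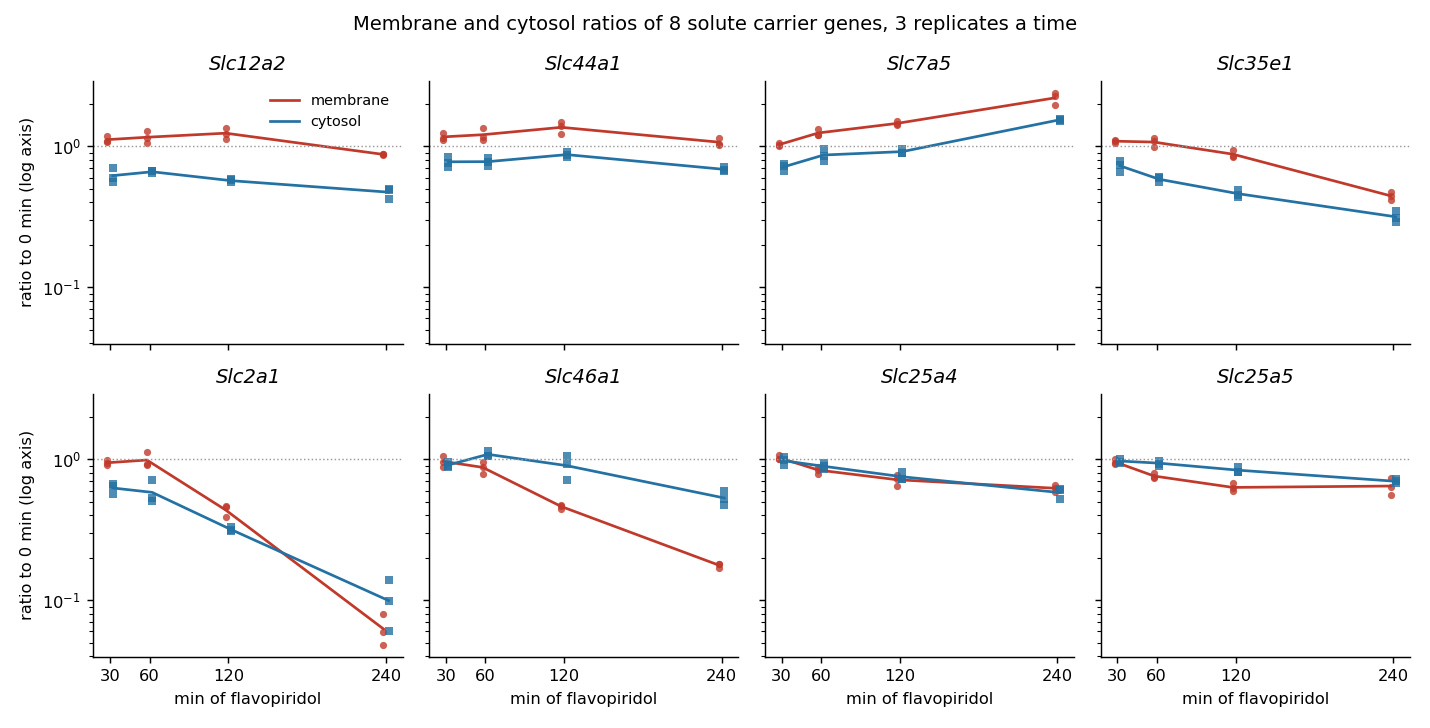
Ratio to 0 min (log axis) against time for 8 members, with the 3 replicates of each fraction as points and their means joined by lines; the dotted line marks the 0 min level. Slc12a2, Slc44a1, Slc7a5 and Slc35e1 ran higher in membrane at all 4 times, Slc2a1 crossed over by 240 min, Slc46a1 fell further in membrane, and the Slc25 genes ran close together.

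Amino acid transporters split. Slc7a5 (LAT1; chromosome 8: 121881150-121907694, minus strand, GRCm38), which takes up large neutral amino acids, rose in every fraction on the authors' scaling. Its membrane ratios went from 1.03, 0.997 and 1.05 at 30 min to 2.26, 2.39 and 1.96 at 240 min, and its cytosol ratios from 0.753, 0.728 and 0.665 to 1.54, 1.57 and 1.52. The slopes were 0.30 ± 0.03 log2 units per hour in both fractions, 0.22 ± 0.05 in nucleus and 0.27 ± 0.05 in total, all with adjusted p under the threshold (2.7e-06 in membrane, 3.0e-04 in total). From 30 to 120 min only, the total slope was −0.05 and not called, so that the rise in total rests on the last time point. Scaled to mitochondrially encoded mRNAs, the slopes were 0.10 ± 0.06 in membrane (adjusted p = 0.17) and 0.13 ± 0.09 in total (adjusted p = 0.20), neither called, and 0.44 ± 0.09 in cytosol and 0.42 ± 0.11 in nucleus, both called.

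Slc3a2 (chromosome 19: 8706882-8723369, minus strand, GRCm38) encodes the heavy chain that carries LAT1 to the cell surface, and its membrane over cytosol ratio moved in the opposite direction. Its cytosol ratios were 2.71, 3.70 and 1.14 at 30 min, 5.45, 4.40 and 5.38 at 60 min, 10.3, 9.53 and 9.95 at 120 min and 10.7, 11 and 15 at 240 min. Membrane ratios stayed between 0.783 and 1.49 over all 12 libraries, nuclear ratios between 0.307 and 0.505, and total ratios reached 2.15, 2.13 and 2.02 at 240 min. The membrane over cytosol difference at 240 min was −3.22 ± 0.42 (adjusted p = 1.6e-05), the lowest of all members, and it was called with each replicate left out in turn. The cytosol slope of 0.61 per hour had an SE of 1.66 and an adjusted p of 0.76 with limma's trend, and an SE of 0.13 and an adjusted p of 0.0013 without it. The 0 min cytosol level behind these ratios is not known here.

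Slc1a5 (ASCT2), the glutamine transporter, was higher in membrane from 60 min on, with 0.807, 0.829 and 0.840 in membrane and 0.432, 0.347 and 0.395 in cytosol at 120 min (log2 difference 1.08 ± 0.11, adjusted p = 9.9e-07). The cationic amino acid transporter Slc7a1 was called higher at 30 and 60 min and had a difference of 0.00 ± 0.13 at 240 min, both calls being lost whichever replicate was left out. Slc7a11 (xCT), the cystine importer, was lower in membrane at 60 min (−0.75 ± 0.27, adjusted p = 0.044) and 120 min (−0.89 ± 0.27, adjusted p = 0.016), held in 0 and 1 of the 3 fits with a replicate left out. Slc7a3 and Slc38a1 passed at no time, with SEs of 0.48 and 0.50.

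Sugar transporters showed 3 patterns. Slc2a1 (GLUT1; chromosome 4: 119108711-119137983, plus strand, GRCm38), a glucose importer, was at 0.920, 1.13 and 0.916 in membrane and 0.528, 0.714 and 0.505 in cytosol at 60 min. By 240 min it had dropped to 0.0597, 0.0800 and 0.0482 in membrane and to 0.0603, 0.139 and 0.0985 in cytosol. The difference thus went from 0.77 ± 0.23 (adjusted p = 0.015) to −0.61 ± 0.23 (adjusted p = 0.047), and each of these calls held in 1 of the 3 fits with a replicate left out. Slc2a3 (GLUT3; chromosome 6: 122727809-122801640, minus strand, GRCm38) was steady at 1.05, 1.06 and 1.07 in membrane at 30 min and 0.939, 1.01 and 0.847 at 240 min. Its cytosol values lay between 0.611 and 0.836 in all 12 libraries, and the difference at 30 min was 0.63 ± 0.08 (adjusted p = 1.5e-04). Slc5a3, the myo-inositol importer, was lower in membrane: at 60 min 0.796, 0.880 and 0.849 against 1.12, 1.34 and 1.25 in cytosol, and at 120 min the log2 difference was −1.05 ± 0.17 (adjusted p = 1.1e-04), a call that held with each replicate left out.

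Among organic ion transporters, Slc16a1 (MCT1), a lactate and pyruvate transporter, held 1.02, 1.08 and 1.08 in membrane at 30 min against 0.802, 0.851 and 0.770 in cytosol, and was called higher at 30, 60 and 120 min. Slc16a3 (MCT4) was called at no time, with SEs of 0.72. Slc29a1 (ENT1), a nucleoside transporter, was called higher at 120 min alone, by 2.28 ± 0.65, in 1 of the 3 fits with a replicate left out. Slc6a8, Slc20a1 and Slc40a1 were not listed in every cytosol library and were not tested.

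The Slc25 genes gave a contrast within the group. Slc25a4 and Slc25a5, which exchange ADP and ATP, had membrane ratios of 1.01, 1.07 and 1.00 and of 0.943, 1.01 and 0.926 at 30 min. Their cytosol ratios were 0.905, 0.988 and 1.03 and 0.947, 0.963 and 1.01, with overlapping ranges in both genes. Slc25a1, the citrate carrier, differed by between −0.15 and 0.03 at the 4 times, and Slc25a3, the phosphate carrier, was called at none of them. Slc25a5 was called lower in membrane at 60 min (−0.30 ± 0.09, adjusted p = 0.012) and 120 min (−0.41 ± 0.09, adjusted p = 0.0011). Slc25a12, an aspartate and glutamate carrier, was called lower from 60 min on, with −0.46 ± 0.13 at 120 min, and held in 1, 1 and 0 of the 3 fits with a replicate left out at 60, 120 and 240 min. Slc25a24 was an exception at 240 min, with 0.775, 1.01 and 1.10 in membrane against 0.454, 0.453 and 0.414 in cytosol, a difference of 1.11 ± 0.19 (adjusted p = 2.1e-04).

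Other membrane transport genes that carry no Slc symbol were counted in the same fits. Of 7 P-type ion pumps tested, 5 were called higher in membrane at 30 min, 7 at 60 min, 5 at 120 min and 3 at 240 min, and 0 lower at any time. Of 14 ABC transporters, 4, 3, 5 and 6 were called higher, and 0, 0, 1 and 0 lower. Atp2a2, the calcium pump of the endoplasmic reticulum, differed by 0.68 ± 0.08 at 60 min, inside the range of the solute carriers called.

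The second comparison asked whether membrane and cytosol ratios changed at different speeds between 30 and 240 min, a measure that the 0 min divisor cannot shift. Here members were called lower more often than higher. The membrane slope was called below the cytosol slope in 22 of 153 members (1.76% of all genes) and above it in 4 (4.94% of all genes), with a median difference of −0.03 log2 units per hour against 0.03 for all genes. Outside Slc25 the counts were 19 lower and 3 higher of 124, and in Slc25 3 lower and 1 higher of 29. On the scale of mitochondrially encoded mRNAs, where the median of all genes was −0.26, 60 members (39.2%, all genes 18.8%) were called lower and 0 higher (all genes 0.0722%). The contrast with other genes rests on the last time point: over 30 to 120 min only, 7 of 158 members (4.43%, all genes 3.74%) were called lower and 2 (1.27%, all genes 1.89%) higher, with medians of −0.01 for members and −0.04 for all genes.

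The calls were sensitive to the replicates used. Of the 22 lower calls 5 held without each replicate in turn: Slc12a7, Slc27a3, Slc29a3, Slc35g1 and Slc46a1. Of the 4 higher calls 0 did. Without replicate 1, 2 and 3 the counts were 6, 10 and 8 lower and 1, 2 and 2 higher.

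Slc46a1, the proton-coupled folate transporter, is an example of the lower calls. Its membrane ratios fell from 0.956, 0.882 and 1.06 at 30 min to 0.170, 0.179 and 0.182 at 240 min, while its cytosol ratios went from 0.887, 0.952 and 0.897 to 0.477, 0.597 and 0.520. The slopes were −0.72 ± 0.04 and −0.26 ± 0.05 per hour, a difference of −0.46 ± 0.06 (adjusted p = 3.8e-05). Slc35g1 differed by −0.46 ± 0.05, Slc27a3, of the fatty acid transport family, by −0.47 ± 0.06, and Slc12a7, a potassium and chloride cotransporter, by −0.34 ± 0.04. Slc29a3, a nucleoside transporter of lysosomes, had membrane ratios of 0.0753, 0.190 and 0.121 at 240 min against 0.384, 0.411 and 0.342 in cytosol, and a difference of −0.61 ± 0.10.

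The other named members with a lower membrane slope were less stable. Slc15a4, which exports histidine and peptides from lysosomes, fell from 0.775, 0.761 and 0.807 to 0.0236, 0.0285 and 0.0344 in membrane and from 0.618, 0.627 and 0.552 to 0.0442, 0.147 and 0.135 in cytosol. That gave slopes of −1.39 ± 0.06 and −0.67 ± 0.15, but the difference of −0.72 lost its call whichever replicate was left out. Slc25a34 (−0.65 ± 0.17), Slc2a1 (−0.38 ± 0.11), Slc2a3 (−0.14 ± 0.04) and Slc30a1 (−0.40 ± 0.12), a zinc exporter, likewise lost their calls whichever replicate was left out, and that of Slc25a34 was also lost with the harvest as a block (adjusted p = 0.052). Slc12a9 (−0.53 ± 0.09), Slc4a7 (−0.45 ± 0.08), a sodium bicarbonate cotransporter, and Slc23a2 (−0.28 ± 0.05), a vitamin C transporter, lost theirs without 1 of the 3.

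The 4 higher calls were Slc22a17, Slc38a6, Slc29a4 and Slc25a24. Slc38a6, of the neutral amino acid transporters, rose in membrane from 1.2, 1.46 and 1.24 to 1.77, 1.84 and 1.77 while cytosol went from 1.04, 0.729 and 1.04 to 0.442, 0.651 and 0.583, a slope difference of 0.32 ± 0.07 (adjusted p = 0.0036). Slc22a17, a receptor for lipocalin-2, had a membrane slope of −0.04 ± 0.09 and a cytosol slope of −0.55 ± 0.09, a difference of 0.51 ± 0.13 (adjusted p = 0.016). Slc29a4 differed by 0.27 ± 0.08 and Slc25a24 by 0.26 ± 0.07, and on the scale of mitochondrially encoded mRNAs these 2 turned to −0.01 and −0.02. With the harvest as a block both calls were lost (adjusted p = 0.096 and 0.070).

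**Figure D4:**
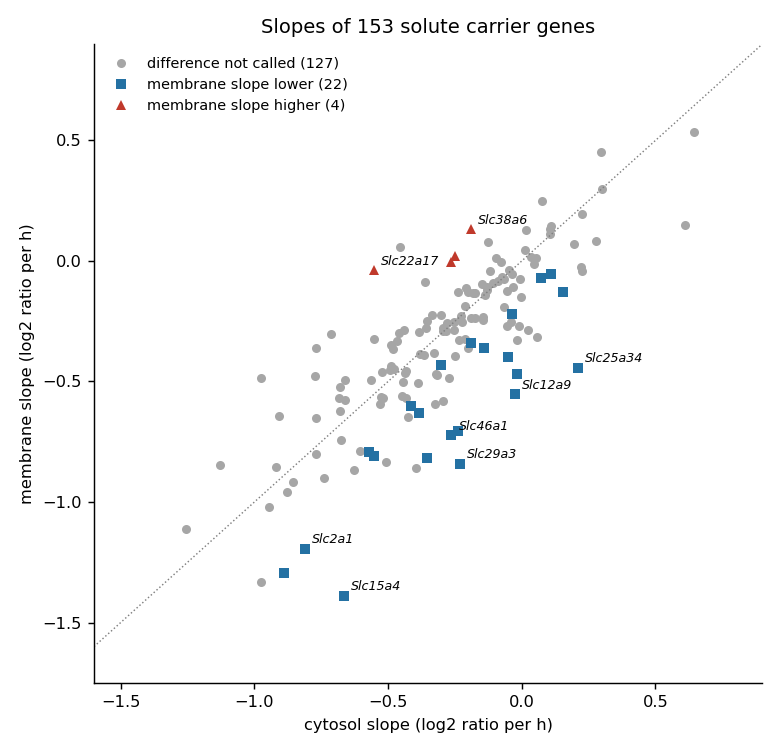
Membrane slope against cytosol slope, both in log2 ratio per hour, for 153 solute carrier genes; squares mark the 22 with a lower and triangles the 4 with a higher membrane slope, and the dotted line marks equal slopes. Most genes lie below 0 on both axes and the called genes lie off the line, mainly below it.

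At 240 min the 3 highest called differences among members were Slc35g3 (2.08 ± 0.68, adjusted p = 0.024), Slc47a2 (1.94 ± 0.48, adjusted p = 0.0044) and Slc22a17 (1.93 ± 0.32, adjusted p = 1.8e-04). The 3 lowest were Slc3a2, Slc25a34 (−1.93 ± 0.43, adjusted p = 0.0023) and Slc12a9 (−1.84 ± 0.23, adjusted p = 1.1e-05). Slc35g3 was at 4.09, 4.05 and 3.15 in membrane but 0.414, 1.31 and 1.26 in cytosol, and Slc12a9 at 0.279, 0.307 and 0.176 against 1.05, 0.961 and 0.684. Those of Slc22a17, Slc3a2 and Slc12a9 were called with each replicate left out in turn, and those of Slc35g3, Slc47a2 and Slc25a34 were not. The call of Slc35g3 was also lost with the harvest as a block (adjusted p = 0.055).

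Within each fraction, most members fell with time, as most genes did. In membrane 130 of 193 had a called negative slope and 11 a positive one (62.2% and 4.09% of all genes), and in cytosol 106 and 9 of 153 (67.1% and 2.95%). In nucleus the counts were 128 and 4 of 171 (61.9% and 3.32%) and in total 110 and 4 of 179 (56.9% and 3.39%). With libraries centred on their median gene, which sets the slope of the genes at large near 0, these became 70 lower and 56 higher in membrane, 47 and 47 in cytosol, 69 and 39 in nucleus and 61 and 42 in total. The lower calls were then 36.3%, 30.7%, 40.4% and 34.1% of members, against 30.9%, 32.4%, 29.2% and 31% of all genes, and the higher calls 29%, 30.7%, 22.8% and 23.5%, against 28.3%, 29.4%, 29.6% and 28.8%. In these counts members lay furthest from the genes at large in nucleus. The gene sets are unlike, however, since members also had to be listed in every membrane library. Over genes listed in all 48 libraries, without centring, lower calls made up 76.7% of members against 65.2% of genes in nucleus and 74.7% against 66% in membrane. In cytosol they made up 69.3% against 71%, and in total 67.3% against 61.3%.

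Nuclear ratios of members outside Slc25 went further down than those of other genes. Over genes listed in all 48 libraries, the median nuclear log2 ratio at 240 min was −2.17 ± 0.15 (SD, n = 3) for 121 members outside Slc25, −1.52 ± 0.12 for 29 Slc25 genes and −1.43 ± 0.10 for all 10694 genes. At 120 min the medians were −1.52 ± 0.20, −1.12 ± 0.13 and −0.92 ± 0.07. In total RNA at 240 min they were −1.34 ± 0.12, −1.05 ± 0.08 and −1.02 ± 0.06. The distances between sets within a library do not depend on its scale factor.

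Half-lives were ranked only among members with a called negative slope in the fraction and the same sign of slope in each replicate series. Among these, the shortest-lived in membrane were Slc35g2, Slc16a4 and Slc38a2. Their half-lives from an exponential fit were 32.3 ± 5.7, 34.2 ± 17.2 and 35.9 ± 4.3 min (SD over 3 replicate series). The level at 0 min was left free in that fit. For a gene that held its level at first, the half-life therefore describes the later fall. In cytosol they were Slc38a2 (33.6 ± 4.7 min), Slc15a4 (36.7 ± 9.4 min) and Slc25a32 (41.9 ± 4.3 min), which carries folate into mitochondria. Slc38a2 (SNAT2; chromosome 15: 96687392-96699730, minus strand, GRCm38), an amino acid importer known for its fast regulation by amino acid supply, was the only gene among the 3 shortest in membrane, cytosol and total. Its membrane ratios went from 0.909, 0.908 and 0.988 at 30 min to 0.144, 0.123 and 0.150 at 120 min and 0.0275, 0.0427 and 0.0421 at 240 min. At 60 min it stood at 0.565, 0.453 and 0.627 in membrane and 0.267, 0.340 and 0.341 in cytosol, a difference of 0.79 ± 0.25 (adjusted p = 0.021) that no fit with 1 replicate left out called.

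In nucleus the shortest half-lives so ranked belonged to Slc25a3, the mitochondrial phosphate carrier (16.4 ± 4.2 min), Slc26a6, an anion exchanger (19.2 ± 13.4 min), and Slc29a1 (22.2 ± 51.4 min). Nuclear ratios of Slc25a3 were 0.747, 1.17 and 0.868 at 30 min, 0.213, 0.216 and 0.306 at 60 min and 0.0913, 0.0820 and 0.0721 at 120 min, while its cytosol ratios at 120 min were 0.732, 0.623 and 0.599. Its nuclear half-life thus describes the fall after 30 min and not a fall from 0 min. The nuclear slope over all 4 times was slower, at −0.996 ± 0.179 (SE) log2 units per hour. In total Slc2a5, the fructose transporter, had 26.3 ± 18.8 min, Slc38a2 31.9 ± 2.6 min and Slc15a4 32.7 ± 3.8 min. An SD near or above the value, as for Slc29a1, means that the 3 replicate series did not fix it.

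Of the 9 members so named for short half-lives, 2 hold in their 3′ UTR the 7 letters TATTTAT, an AU-rich core often found in unstable mRNAs. The windows below, read on the coding strand from the GENCODE M21 transcripts (GRCm38), show them with 10 bases on either side and the letters searched in capitals. Slc38a2 holds them in 2 places and the window is 1 of those, at chr15:96687932-96687958, in a 3′ UTR of 2735 bases. That of Slc26a6 is at chr9:108859316-108859342, in a 3′ UTR of 1111 bases.
Slc38a2: actgtactgtTATTTATagagcagcat
Slc26a6: cagatacggaTATTTATagagacgtgg
The letters were found in 57 of 191 members with an annotated 3′ UTR (29.8%) and in 28% of 9470 genes with a 3′ UTR among those listed in all membrane libraries. The 57 members with them had a median membrane half-life of 153 ± 19.7 min and the 134 without 231 ± 45.6 min. Their 3′ UTRs were also longer, with medians of 2130 and 923 bases. In cytosol the half-lives were 183 ± 28.6 and 218 ± 31.2 min, in total 152 ± 24.2 and 200 ± 18.4 min, and in nucleus 116 ± 92.1 and 123 ± 81.7 min.

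Steepest among the called rises were Slc25a18, Slc35g3 and Slc44a3 in membrane, Slc25a18, Slc7a5 and Slc7a8 in cytosol, Slc5a4b, Slc25a18 and Slc35g3 in nucleus, and Slc25a18, Slc26a8 and Slc3a2 in total. Slc25a18, a mitochondrial glutamate carrier, was at 1.47, 2.65 and 0.947 in membrane at 30 min, 0.411, 0.779 and 1.80 at 120 min and 3.40, 4.38 and 7.01 at 240 min. At 240 min it was also at 1.86, 1.88 and 3.55 in cytosol, 1.71, 1.63 and 1.70 in nucleus and 2.46, 3.77 and 2.86 in total, all above 1. Slc44a3 was at 2.68, 2.37 and 2.69 in membrane at 240 min and at 0.989, 0.889 and 1.14 at 120 min. The membrane slopes of Slc25a18 and Slc44a3 turned to −0.55 and −0.19 over 30 to 120 min, so both rises rest on the last time point. Scaled to mitochondrially encoded mRNAs, calls were lost for Slc25a18 (0.33) and Slc44a3 (0.15) in membrane and for Slc26a8 (0.21) and Slc3a2 (0.19) in total. Slc35g3 in membrane (0.25, adjusted p = 0.0498), Slc25a18 in total (0.46) and the genes named in cytosol and nucleus were still called.

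Half-lives are given by substrate group as medians, with no test between groups. The median over all members was 196 ± 24.4 min in membrane, 214 ± 31.4 min in cytosol, 121 ± 86.0 min in nucleus and 196 ± 19.3 min in total, beside 219, 213, 176 and 244 min over all genes tested. Nucleoside and vitamin transporters had the lowest group median in membrane (112 ± 25.8 min) and in total (90.5 ± 11.8 min). Metal ion transporters were at 120 ± 4.1, 122 ± 37.2, 95.3 ± 36.4 and 115 ± 13.9 min in membrane, cytosol, nucleus and total. In membrane 17 of 19 had a called negative slope (all genes 62.2%) and 0 a positive one (all genes 4.09%). Amino acid transporters had the highest medians among groups of 7 or more genes in the 3 fractions other than nucleus, at 609 ± 625 min in membrane, 890 ± 386 min in cytosol and 397 ± 127 min in total, with no finite half-life for 10 of 30 in membrane. Their membrane medians in the 3 replicate series were 327, 1432 and 373 min, so this value is not fixed by the data. Slc35 genes had 169 ± 28.2 min in membrane and 89.3 ± 62.2 min in nucleus, and Slc25 genes 206 ± 31.6 and 165 ± 87.9 min. With the median gene of each library set to 0, the members' median became 2227 min in membrane, so these times hold for the authors' scaling.

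**Figure D5:**
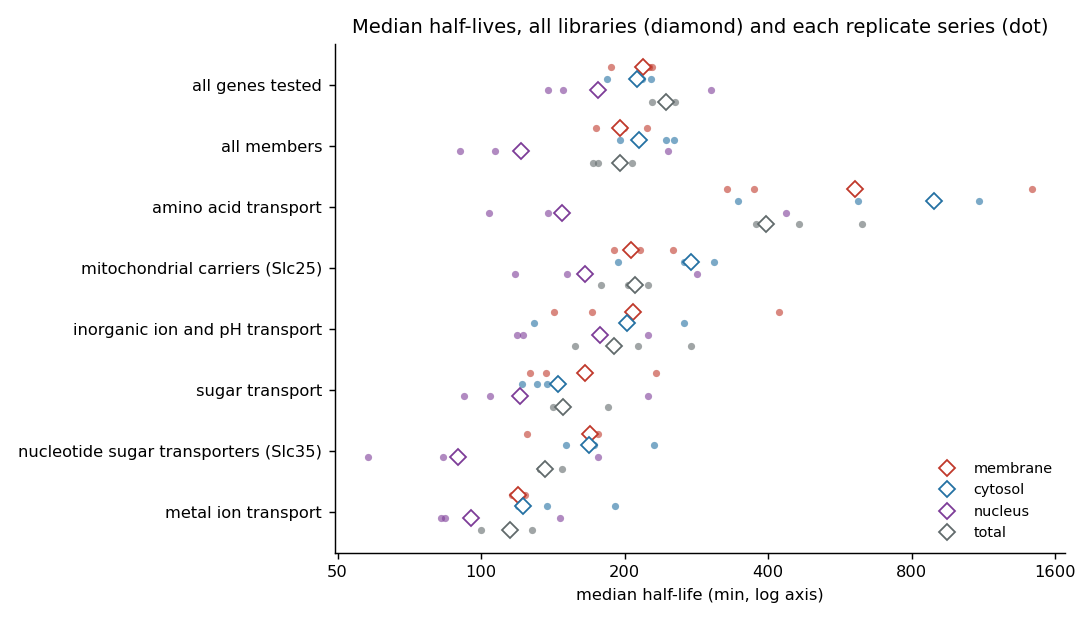
Median half-life in min (log axis) of all genes tested, all members and 6 substrate groups in the 4 fractions; diamonds are fits to all 12 libraries, dots fits to each replicate series. Metal ion transporters lie near 120 min in membrane and cytosol, amino acid transporters at 609 and 890 min, and the nuclear dots spread most.

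The third comparison set nuclear against membrane slopes. The nuclear slope was called below the membrane slope in 28 of 171 members (6.16% of all genes) and above it in 5 (2.19%), with a median difference of −0.05 per hour against −0.003 for all genes. Amino acid transporters gave 8 lower of 27, organic ion transporters 5 of 15, Slc35 4 of 19 and Slc25 4 of 29, and 0 of 18 metal ion transporters were called either way. Leaving out replicates 1, 2 and 3 gave 20, 5 and 4 lower and 2, 1 and 0 higher. Of the 28 lower calls 3 held throughout, those of Slc22a17, Slc36a1 and Slc38a6, and of the 5 higher calls 0 did. Without the nuclear library of replicate 1 at 30 min the counts were 32 lower and 4 higher. On the scale of mitochondrially encoded mRNAs, which moved the median of all genes to 0.35, 59 were called higher (34.5%, all genes 44.3%) and 1 lower (0.585%, all genes 0.318%).

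Slc22a17 gave the lowest difference, −1.21 ± 0.11 per hour (adjusted p = 9.8e-07). In nucleus it went from 0.430, 0.755 and 0.722 at 30 min to 0.0348, 0.0337 and 0.0222 at 240 min, while in membrane it stood at 1.43, 0.736 and 1.48 and then 1.21, 1.41 and 1.3. Slc9a5, a sodium and proton exchanger, followed with −0.82 ± 0.18 and Slc29a1 with −0.75 ± 0.21, and the latter turned to 0.08 with a pseudocount of 0.1. Neither of these calls held with each replicate left out in turn. The highest were Slc5a4b (0.70 ± 0.20), Slc4a7 (0.53 ± 0.09) and Slc35g2 (0.52 ± 0.16), and none of these calls held throughout either. Slc4a7 was at 0.981, 2.07 and 1.3 in nucleus at 30 min and 1.79, 1.78 and 1.80 at 240 min, against 0.257, 0.282 and 0.309 in membrane at 240 min.

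Coding length and exon number lay on opposite sides of the genes at large outside and inside Slc25. The longest annotated coding transcripts had a median coding length of 1644 bases outside Slc25 and 957 in Slc25, against 1365 for 9625 genes of the membrane list with one, and medians of 11, 8 and 9 exons. Across 191 members, Spearman's rho of membrane half-life was 0.28 with the number of exons, 0.15 with coding length and −0.15 with 3′ UTR length. In cytosol (151 members) the same were 0.26, 0.15 and −0.11. These are descriptions across genes, which share libraries and scaling and are not independent replicates.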

How the data were processed

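The 48 libraries were grouped by fraction and time from their labels (16 groups of 3). According to the methods and labels, the authors aligned stranded reads to mm10 with STAR 2.7.6, counted them with RSEM 1.3.3, scaled libraries on genes with long half-lives and deposited for each gene a ratio to its 0 min level in the same fraction. The 0 min libraries were not analysed here. No counts come with the ratios, so depth is unknown and no counting interval is given. The last time is 240 min in the titles and in 1 methods section, and 180 min in the protocol text and another methods section; 240 was used. Since the protocol splits each harvest into the 4 fractions, libraries of 1 number and time were taken as paired: in 24 of 24 membrane and cytosol libraries, deviations from the group mean correlated best with the same number (r of 0.0321 to 0.167 for same-number pairs). Between membrane and nucleus this held in 15 of 24 libraries (r of −0.0437 to 0.097), so the values give that pairing weaker support. Fits have no block unless stated.

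Genes listed in all libraries of a comparison were fitted on log2 of the ratio, with no pseudocount, by limma 3.58.1 (R 4.3.3, trended prior, two-sided, Benjamini-Hochberg over all genes, adjusted p under 0.05), either with 1 mean per fraction and time or with a slope on time. Half-lives are least-squares exponential fits with the 0 min level left free (Python 3.11.15, numpy 2.4.6, pandas 2.3.3, matplotlib 3.10.9), with the SD over the 3 replicate series. P-values at single times rest on the spread between libraries of independently passaged cultures. In slope fits that spread also holds departures from a straight line over time. In tests between fractions without a block, the 2 libraries of 1 harvest count as separate cultures. Values of related genes of similar sequence, such as Slc25a4 and Slc25a5, may depend on how RSEM shared reads between them, which was not tested.

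The members, substrate groups and tests were chosen with earlier results of these data known. Genes named were a list of well-known carriers (1 of them is not reported here), the 12 largest called membrane against cytosol slope differences in each direction (4 were higher), the 3 largest in each direction at 240 min and for nucleus against membrane, and the 3 shortest half-lives and 3 steepest rises per fraction. Half-lives and rises were ranked only among members with a called slope in the fraction and the same sign of slope in each replicate series. Other genes, such as members called at all 4 times, were chosen after their values were seen. On simulated data with 11086 genes, 78.5% of 200 genes given a membrane against cytosol slope difference of 0.5 were called, and 44.5% of those given 0.25. Alternatives were other scalings, a pseudocount of 0.1, other listing filters, no trend, a block on the replicate number or on the harvest, fewer times, 180 min as the last time and each replicate left out.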

Additional observations from a re-analysis of the deposited data

Results flagged for a closer look

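A difference between the slopes of 2 fractions was tested directly, by an interaction of fraction and time, and it passed for some members in both pairs of fractions. Between membrane and cytosol, 4 members had a higher membrane slope and 22 a lower one, of 153 tested. These were 2.61% and 14.4% of members, against 4.94% and 1.76% of all genes. Over 30 to 120 min only, lower calls made up 4.43% of members and 3.74% of all genes. Between nucleus and membrane, 5 members had a higher nuclear slope and 28 a lower one, of 171 tested. That was 2.92% and 16.4% of members, against 2.19% and 6.16% of all genes. Groups of 3 libraries are too small for the test of single outlying libraries, which was not run.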

How the results depend on the processing

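Of the values for named genes, 1070 kept direction and side of the threshold, 147 lost and 14 gained a call and 45 changed sign; of the counts and medians, 199 moved little and 81 more. The cause was not tested. With libraries centred on their median gene, slopes were called higher and lower for 56 and 70 members in membrane, 47 and 47 in cytosol, 39 and 69 in nucleus and 42 and 61 in total. Nuclear over membrane slopes were then higher in 13, membrane was lower than cytosol in 4 at 60 min and 11 at 120 min, and median half-lives were 2227 min in membrane, without a finite value in cytosol, 614 in nucleus and 1074 in total. Scaled to mitochondrially encoded mRNAs, 1 membrane and 1 total slope were higher and 47 cytosol and 43 nuclear slopes lower. Membrane against cytosol slopes were higher in 0 and lower in 60, and nuclear against membrane slopes higher in 59 and lower in 1. At 30, 60, 120 and 240 min membrane was higher in 0, 5, 0 and 0 and lower in 78, 25, 134 and 133, and half-lives were 90.5 min in membrane, 414 in cytosol and 129 in total. From 30 to 120 min only, slopes were higher in 3 (membrane), 3 (cytosol), 2 (nucleus) and 0 (total), membrane against cytosol slopes higher in 2 and lower in 7, and half-lives 175 min in cytosol and 118 in total. With 180 min as the last time they were 152 min in membrane, 168 in cytosol and 149 in total, and with the 0 min level fixed at 1 they were 281 in membrane and 154 in total. Without limma's trend 1 member was lower at 30 min. Nuclear against membrane slopes were higher in 3 over genes listed in all 48 libraries and in 3 with no listing filter, and lower in 15 with the pseudocount.

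With replicates or single libraries left out, slopes were higher in 6 to 8 (membrane), 4 to 7 (cytosol), 2 to 4 (nucleus) and 2 to 5 (total). Membrane against cytosol slopes were higher in 1 to 2 and lower in 6 to 10, and nuclear against membrane slopes higher in 0 to 4 and lower in 4 to 32. Membrane was higher in 0 to 7 at 30 min, 25 to 35 at 60 min and 23 to 36 at 240 min, and lower in 2 to 7 at 60 min, 6 to 13 at 120 min and 16 to 20 at 240 min. The cytosol half-life was 199 to 249 min.

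Signs changed mostly for slope differences near 0. For the membrane against cytosol slope difference, 30 to 120 min only gave 0.012 for Slc16a1, 0.44 for Slc1a5, −0.012 for Slc25a24, −0.081 for Slc25a4, 0.027 for Slc2a3, 0.054 for Slc30a1, −0.21 for Slc38a1, 0.19 for Slc39a1 and 0.10 for Slc7a5. Mitochondrial scaling gave −0.26 for Slc12a2, −0.28 for Slc25a1, −0.023 for Slc25a24, −0.26 for Slc25a4, −0.23 for Slc29a1, −0.014 for Slc29a4 and −0.26 for Slc35a1. Centring gave −0.014 for Slc25a1, 180 min gave 0.013 for Slc1a5 and 0.0099 for Slc7a5, and the pseudocount −0.034 for Slc29a1 and 0.0063 for Slc7a5. With 1 replicate left out in turn, the difference ran from −0.0021 to 0.041 for Slc12a2, −0.92 to 0.11 for Slc16a3, −0.020 to 0.034 for Slc25a1, −0.28 to 0.042 for Slc25a3, −0.014 to 0.057 for Slc25a4, −0.057 to 0.039 for Slc25a5, −0.27 to 0.29 for Slc29a1, −0.041 to 0.076 for Slc35a1, −0.094 to 0.064 for Slc7a11 and −0.033 to 0.032 for Slc7a5. The membrane slope of Slc22a17 then ran from −0.12 to 0.017 and the nuclear slope of Slc4a7 from −0.0061 to 0.12. Among slopes, 30 to 120 min only gave 0.060 for Slc22a17, −0.55 for Slc25a18 and −0.19 for Slc44a3 in membrane, −0.14 for Slc35g3 in nucleus and −0.053 for Slc7a5 in total. The membrane slope of Slc22a17 was 0.22 with centring. The nuclear against membrane slope difference of Slc29a1 was 0.082 with the pseudocount. Membrane against cytosol, centring gave 0.095 for Slc25a4 at 60 min, and mitochondrial scaling −0.46 for Slc1a5 at 120 min, −0.48 for Slc25a24 at 240 min and −0.25 for Slc2a3 at 30 min.

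With the harvest as replicate block, membrane against cytosol slopes were higher in 3 and lower in 24 members, and nuclear against membrane slopes higher in 5 and lower in 28. Membrane was higher in 23, 49, 45 and 43 at the 4 times and lower in 0, 12, 20 and 27. All genes went from 425 higher and 289 lower to 318 and 189 at 30 min, and from 548 and 195 to 706 and 253 for slope differences. Of the values for named genes, this block ended 4 calls, given beside them, and added 1, the membrane against cytosol slope difference of Slc38a2 (−0.36, adjusted p = 0.046). With the replicate number alone as block, slope differences were higher in 4 and lower in 22, membrane was higher in 24, 51, 46 and 43, and the total slope of Slc2a5 lost its call (adjusted p = 0.056).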
